A study of Homo sapiens with 4 samples.

Results

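The subject is how the ribosomes of untreated, wild type HEK293 cells were divided among messenger RNAs, taken from the single library labelled wild type with no erythromycin, which is 1 of 4 libraries in the series. HEK293 is an established human embryonic kidney cell line. Ribosome profiling (Ribo-seq) sequences the short pieces of mRNA that ribosomes cover, called footprints, so the number of footprints on an mRNA is read as the number of ribosomes found on it. The other 3 libraries are wild type with erythromycin, an antibiotic that binds bacterial ribosomes, and an RPL4 mutant without and with erythromycin. They were used here only to ask which values of the wild type library also stood in the others. The protocols describe stable lines expressing GFP, RPL4 or RPL4 lacking a loop, infected with virus carrying either an RPL4 hairpin (to lower the cell's own RPL4) or a scramble control, and cells held with cycloheximide or lactimidomycin. Which line, hairpin and drug the wild type library had is not given in the sources used here. Lactimidomycin holds initiating ribosomes and cycloheximide elongating ones, so the shares below hold for whichever state was captured.

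The file listed 14411 transcripts above 0, of 16292 listed in at least 1 library, as RPKM (reads scaled by the length of the coding sequence and by the reads of the library). RPKM is a density, the ribosomes per length of coding sequence, and RPKM times length gives back the reads. The library total recovered in this way was 2965243 reads, and the reads of the single transcripts added up to 2963875, or 99.954% of it. Shares of footprints below are shares of these reads. With 1 library there is no spread between samples, no test was made, and the 95% intervals (Wilson for shares, exact Poisson for RPKM) cover counting error only. Sequenced copies of 1 molecule cannot be told from separate molecules, so the true errors may be wider. A low value can mean fewer ribosomes per mRNA or less mRNA, which footprints alone cannot tell apart.

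A growing cell needs some kinds of protein in very many copies. Ribosomes are themselves built from such proteins, whose mRNAs commonly begin with a C followed by a run of pyrimidines, the 5′ terminal oligopyrimidine tract through which the mTOR pathway controls their translation. Histones of the replication-dependent kind are made in S phase, from many small genes without introns, to package the new DNA. Glycolytic enzymes, actin, tubulin and chaperones are other abundant cytosolic proteins.

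The identity of the cells was checked against marker genes. Of 10 genes known from HEK293, including the neurofilament genes and vimentin, 7 reached 10 RPKM, and vimentin (VIM) was highest at 963.8 RPKM. The 3 below that level were NEFM, PAX2 and NES. The median listed transcript had 10.7 RPKM, so most listed transcripts reach 10 RPKM. Reaching it therefore says little on identity by itself. Among markers of blood cells, liver cells and fibroblasts, 0 of 9, 0 of 6 and 0 of 6 reached 10 RPKM, with summed levels of 2.29, 3.04 and 7.83 RPKM. Of the 6 muscle markers, TNNT1, slow skeletal troponin T, reached 45.1 RPKM.

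The starts of some of the most-read genes are shown to set starts with the tract beside starts without it. They were picked as examples, so their numbers are not a share of genes. Each line gives 10 bases before and 15 bases from the RefSeq transcription start on (GRCh38.p14, 5′ to 3′ on the gene's strand), and capitals mark a tract of C at the first base with at least 4 more pyrimidines.
RPL7A, chr9:133348208-133348232, plus strand: attccctttcCTTTCTCTCTCCTCC
RPL13A, chr19:49487598-49487622, plus strand: aaacctcctcCTTTTCCaagcggct
RPS19, chr19:41860245-41860269, plus strand: ccccgtcgttCCCTTTCCCCTggct
EEF1A1, chr6:73521018-73521042, minus strand: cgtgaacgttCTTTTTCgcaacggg
EEF2, chr19:3985449-3985473, minus strand: cgtcagcgttCTCTTCCgccgtcgt
RACK1, chr5:181243892-181243916, minus strand: gcttttctctCTCTCTTTCactgca
RPS4X, chrX:72277234-72277258, minus strand: ctccagccccaatttctacgcgcac
RPL4, chr15:66504841-66504865, minus strand: cgggagtggtaagcacttccttttc
GAPDH, chr12:6535254-6535278, plus strand: gtgcatccctgtccggatgctgcgc
HIST1H3B, chr6:26032085-26032109, minus strand: cctttcctccacagacgtctctgca

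The first 6 of these genes hold the tract at the listed start and the last 4 do not. Among genes not shown, TUBB holds a tract of 5 bases and RPS15 holds none. This describes the RefSeq starts, since the starts of the mRNAs in these cells were not measured. The GAPDH start shown lies inside its listed transcript, which begins at chr12:6533927. In RPL4 a pyrimidine run follows a few bases after the start shown. How many ribosomal protein genes hold it depended on which start was taken, and it was counted in 4 ways. With the RefSeq start nearest the transcript's 5′ end, matched by gene ID, 42 of 65 ribosomal protein genes (64.6%) held it, against 5.23% of 11606 listed genes and 4.07% of all 27304 RefSeq genes. By that count it was held by 29 of 83 genes among the 100 most read. Of 10 elongation and termination factors with a start, 2 held it, EEF1A1 and EEF2. Matching by symbol gave the same 42 of 65, against 5.26% of 11232 listed genes. Over the 54 genes with 1 RefSeq start, 41 (75.9%) held it, against 5.36% of 7970 listed genes. With the 5′ end of the GENCODE 29 transcript the count was 14 of 82 (17.1%), against 2.71% of 14306 listed genes. The RefSeq table gave a start for 65 of the 82 ribosomal protein genes (79.3%), under the minimum of 80% set for a check over a gene set, so the RefSeq share is void as a statement on the whole set. The share of ribosomal protein genes was above that of all listed genes in each of the 4 counts. Only the GENCODE 29 count reached the 80% minimum, and the counts by gene ID and by symbol are not separate evidence. The size of the share is not settled by these annotations.

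Footprints were concentrated on few transcripts. The 551 most-read transcripts held 50% of all footprints, 4952 held 90% and 9839 held 99%. The 10 most-read transcripts held 5.76% (5.73% to 5.78%), the first 100 held 24.96% and the first 1000 held 60.2%. At the other end, the 4572 least-read transcripts held 1% together. The median transcript had 54 reads and 10.7 RPKM, and the highest density was 12364.7 RPKM. No single mRNA took 1% of the footprints. The Gini coefficient, which is 0 for equal shares and approaches 1 when few transcripts hold everything, was 0.777.

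**Figure D1:**
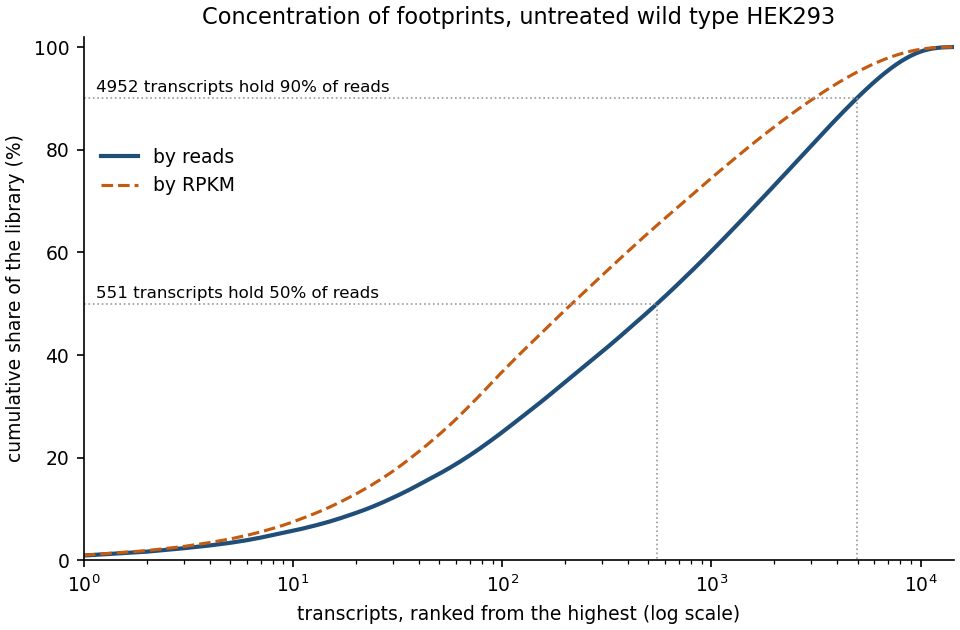
Cumulative share of the library (%) against transcripts ranked from the highest (log scale), by reads (solid) and by RPKM (dashed). The solid line passes 50% at 551 transcripts and 90% at 4952, and the dashed line lies above it because density is more concentrated than reads.

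The most-read mRNA was EEF1A1 (chr6:73515750-73521018, minus strand, GRCh38), which encodes the elongation factor that brings aminoacyl-tRNA to the ribosome. It had 27807 reads, 0.938% (0.927% to 0.949%) of all footprints, at 6751 RPKM. GAPDH (chr12:6533927-6538371, plus strand), a glycolytic dehydrogenase, followed with 22343 reads and 0.754%. The linker histone gene HIST1H1E (chr6:26156354-26157107, plus strand) had 19682 reads and 0.664%. The counting intervals of these 3 do not overlap. Behind them came ACTB (cytoplasmic actin, 0.542%), HIST1H1C (linker histone, 0.509%), HIST1H3B (histone H3, 0.508%), RPS4X (small-subunit ribosomal protein, 0.508%) and ENO1 (enolase, 0.501%). The intervals of HIST1H1C, HIST1H3B, RPS4X and ENO1 overlap, so their order is not resolved by counting.

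Among the 100 most-read transcripts, 47 encode cytosolic ribosomal proteins and 16 replication-dependent histones. Another 6 encode cytoskeletal proteins, 5 glycolytic enzymes and 4 cytosolic chaperones.

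Density gave another order, since short coding sequences need few ribosomes to be densely covered. HIST1H3B (chr6:26031650-26032060, minus strand) was densest at 12364.7 RPKM (12168 to 12564), followed by HIST1H4C at 11238 and HIST1H1E at 10057. Next came RPS15 at 9494 RPKM and MIF, a small secreted cytokine and tautomerase, at 8679. RPL36, RPL38 and RPL37A lay between 8345 and 8614 RPKM. Of all listed transcripts 206 reached 1000 RPKM, and they held 31.8% of the footprints.

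The listed transcripts were placed in 35 functional classes by gene name, each transcript in the first class that matched. The classes covered 4689 transcripts and 68% (67.9% to 68.1%) of the footprints. The other 9627 named transcripts held 31.6%, and 95 without a symbol held 0.407%. Transcripts outside the classes had a median of 8.15 RPKM, against 21.3 RPKM within them.

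**Figure D2:**
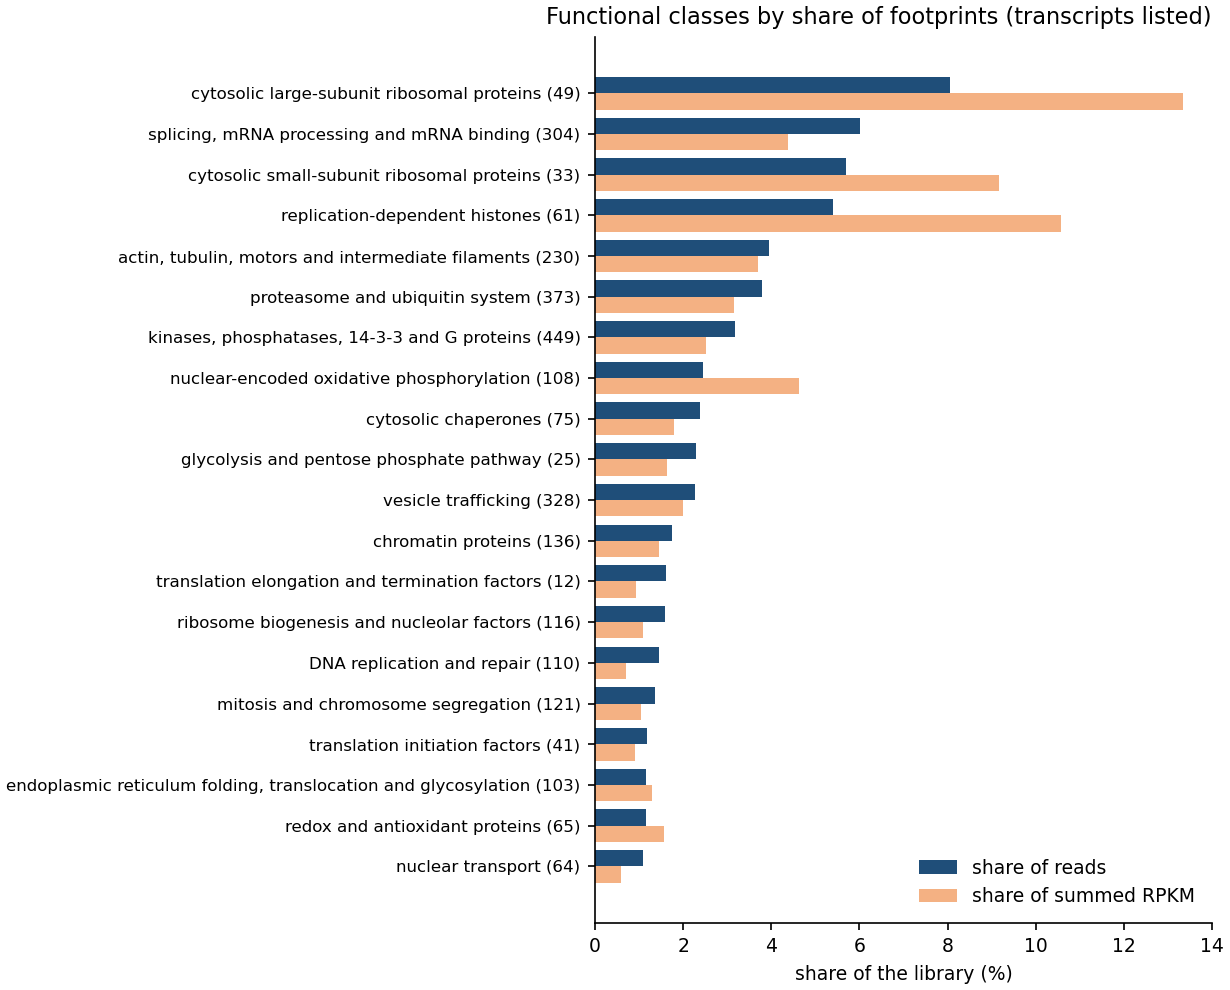
Share of the library (%) held by the 20 classes with most footprints, as reads (dark) and as summed RPKM (light), with the number of listed transcripts in brackets. Ribosomal proteins, histones and oxidative phosphorylation have longer light bars than dark ones, and splicing proteins, cytosolic chaperones and glycolysis the reverse.

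The protein synthesis machinery was the largest expense. Cytosolic ribosomal proteins, elongation and initiation factors, ribosome biogenesis factors and aminoacyl-tRNA synthetases together held 18.5% of all footprints over 274 transcripts. The 82 ribosomal protein transcripts alone held 13.8% (13.7% to 13.8%), with 8.07% on the large subunit and 5.69% on the small. No ribosomal protein dominated, since 23 of them were needed to reach 50% of the footprints of the class. RPS4X, RPS15 and RPL7A were the most read, with 15053, 12922 and 11746 reads.

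RPL4, the protein changed in the mutant lines of this series and part of the wall of the ribosome's exit tunnel, had 9576 reads at 2515 RPKM in the wild type library.

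Elongation and termination factors held 1.60% on 12 transcripts, and EEF1A1, EEF2 and EEF1B2 took 88.3% of that. EEF2, the translocase, had 1479 RPKM and EIF5A 1148 RPKM. Initiation factors held 1.19% over 41 transcripts, led by EIF4A1, the RNA helicase of the cap-binding complex, with 10511 reads. Ribosome biogenesis factors held 1.59% over 116 transcripts, and NPM1, a nucleolar chaperone, led with 2284 RPKM. The 23 aminoacyl-tRNA synthetases, which charge tRNAs with amino acids, held 0.411% with densities from 25.3 to 195.3 RPKM.

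Histones together held 6.0% (5.97% to 6.03%) of footprints and 11.7% of summed RPKM. The 61 replication-dependent transcripts held 5.41%, and 7 of them were needed for 50% of this. Nucleosomes contain the core histones H2A, H2B, H3 and H4 in equal numbers, so their densities can be set side by side. Summed over genes, the densities were 25332 RPKM for H2A, 33398 for H2B, 22092 for H3 and 32422 for H4. H2A was thus at 0.781, H2B at 1.03 and H3 at 0.681 of H4. These sums leave out the replication-independent variants, which also enter nucleosomes and whose values follow. The linker histone H1 stood at 18588 RPKM, or 0.573 of H4.

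How many genes supplied a type differed. For H1, HIST1H1E and HIST1H1C gave at least 90% of the summed density, with HIST1H1D at 571.7 RPKM and HIST1H1B at 2.48. For H3, 3 of 13 genes gave 90%, while H2A needed 10 of 14 and H2B 8 of 18. HIST1H2BJ led H2B at 7978 RPKM and HIST1H4C led H4 at 11238 RPKM. These genes are near-identical copies, and how reads that fit several of them were placed is not given in the sources used here, so the split among genes of 1 type is uncertain. HIST1H2BE and HIST1H2BI have the same value of 12.4 RPKM, but on 14 reads each, where equal counts can also arise without shared reads.

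**Figure D3:**
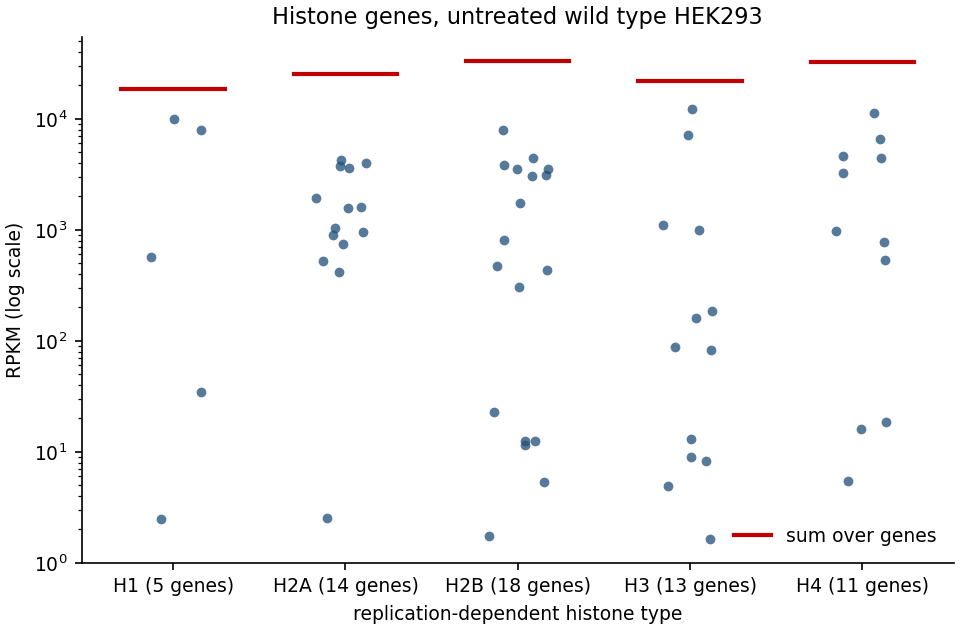
RPKM (log scale) of each replication-dependent histone gene, by type, with points spread sideways for legibility only and a red line at the sum over the genes of the type. The sums lie between 18588 RPKM (H1) and 33398 RPKM (H2B). The lowest gene of a type lies between 1.64 and 5.40 RPKM and the highest between 4227 and 12364.7 RPKM.

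Replication-independent variants, made throughout the cell cycle, held 0.591%. H3F3A, which encodes the H3.3 variant, had 4104 RPKM, its partner gene H3F3B 1046 RPKM, H2AFZ 3437 RPKM and H2AFX 1916 RPKM.

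Splicing, mRNA processing and mRNA-binding proteins held 6.01% over 304 transcripts. HNRNPA2B1, an hnRNP protein of nascent transcripts, led with 5137 reads. ACIN1, listed second in the class, differed among the 4 libraries and is described further on. The share was spread thinly, with 39 transcripts needed for 50% of the class.

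Actin, tubulin, motor and filament proteins held 3.95% over 230 transcripts, but ACTB, ACTG1 and TUBB alone took 32.0% of this. Of the 6 actin genes, the cytoplasmic pair ACTB (4799 RPKM) and ACTG1 (3353 RPKM) gave 58.8% and 41.1% of the summed density. The muscle actins ACTA1, ACTC1 and ACTG2 had 6, 3 and 6 reads. Beta-tubulin came mainly from TUBB (2578 RPKM, 64.6%) and TUBB4B (1148 RPKM, 28.7%), and alpha-tubulin from TUBA1B (667.0 RPKM, 76.6%) and TUBA1C (157.8 RPKM, 18.1%). TUBB3, a neuronal isotype, had 8 reads. Closely related tubulin genes share sequence, so these splits too depend on how shared reads were placed.

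Glycolysis and the pentose phosphate pathway held 2.29% on 25 transcripts, and GAPDH and ENO1 were enough for 50% of the class. Along the pathway, density ranged widely. HK1, the hexokinase of the first step, had 50.8 RPKM and GPI 447.7. TPI1, which interconverts the triose phosphates, had 2260 RPKM, GAPDH 7475, PGK1 561.0, PGAM1 674.9, ENO1 3837 and PKM 1157. Lactate dehydrogenase was LDHB at 1450 RPKM and LDHA at 887.8. The symbol ALDOA had no transcript here, while AC093512.2, a gene model at chr16:30053123-30070403 that overlaps ALDOA, had 7107 reads and stayed outside the classes. Those reads, 0.240% of all footprints, are not in the 2.29%, which thus holds no value for ALDOA.

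Cytosolic chaperones held 2.38% over 75 transcripts, with PPIA (cyclophilin A) at 6028 RPKM. The HSP90 pair HSP90AB1 and HSP90AA1 had 759.0 and 624.5 RPKM. Among HSP70 proteins the constitutive HSPA8 gave 50.9% of the summed density at 824.9 RPKM, and the stress-inducible HSPA1A and HSPA1B had 36.9 and 57.6 RPKM. Of the 14-3-3 adaptor proteins, YWHAE led with 2542 RPKM and 43.7% of the family, and SFN, typical of epithelial cells, had 25.3 RPKM.

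The proteasome and ubiquitin system held 3.79% over 373 transcripts. Kinases, phosphatases, 14-3-3 and G proteins held 3.17% over 449, led by RACK1, a scaffold on the small ribosomal subunit, with 9990 reads. DNA replication and repair proteins held 1.44%, mitosis and chromosome segregation proteins 1.36%, and chromatin proteins other than histones 1.75%.

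Mitochondrial proteins together held 5.94% (5.92% to 5.97%) over 356 transcripts. Nuclear-encoded oxidative phosphorylation held 2.46% of footprints but 4.63% of summed RPKM, with a median coding length of 475.5 bases. ATP5F1B, the catalytic beta subunit of ATP synthase, had 5847 reads. The 7 proteins listed from the mitochondrial genome, made by mitochondrial ribosomes, held 0.144%. Proteins of that genome that are not listed are missing from this share. Within cytochrome c oxidase, the mitochondrially encoded core subunits MT-CO1 and MT-CO2 had 330.7 and 313.6 RPKM. MT-CO1 ran from 166.2 to 587.9 RPKM over the 4 libraries. Among the nuclear-encoded subunits COX5A had 603.7 RPKM, COX4I1 1099, COX5B 1330 and COX7C 3248. Whether mitochondrial and cytosolic ribosomes were captured alike was not tested, so these 2 groups of subunits are not on a common scale. The tissue-specific forms COX4I2 and COX6B2 had 4 and 3 reads.

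Some classes with many listed transcripts held small shares. Membrane transporters and ion channels held 1.05% over 493 transcripts, at a median of 2.96 RPKM. Cell adhesion and matrix proteins held 0.512% over 257. Zinc finger genes held 0.869% over 480. Olfactory receptors held 0.0802% over 43 transcripts, of which 39 had fewer than 10 reads and OR4K15 held most of the rest.

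Short coding sequences were denser. Transcripts under 300 bases of coding sequence had a median of 92.8 RPKM, and those of 3000 bases or more a median of 3.66 RPKM. Spearman's rho between RPKM and coding length was -0.40 over 14400 transcripts of this 1 library, and -0.39 without ribosomal proteins and histones. With at least 20 reads it was -0.63, a minimum that removes short transcripts of low density more readily than long ones. Reads, which are not divided by length, had a rho of -0.08. Length enters the RPKM itself, so part of the first value is shared arithmetic. The median coding length was 1449 bases counting each transcript alike, 1041 bases weighted by footprints and 585 bases weighted by RPKM.

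**Figure D4:**
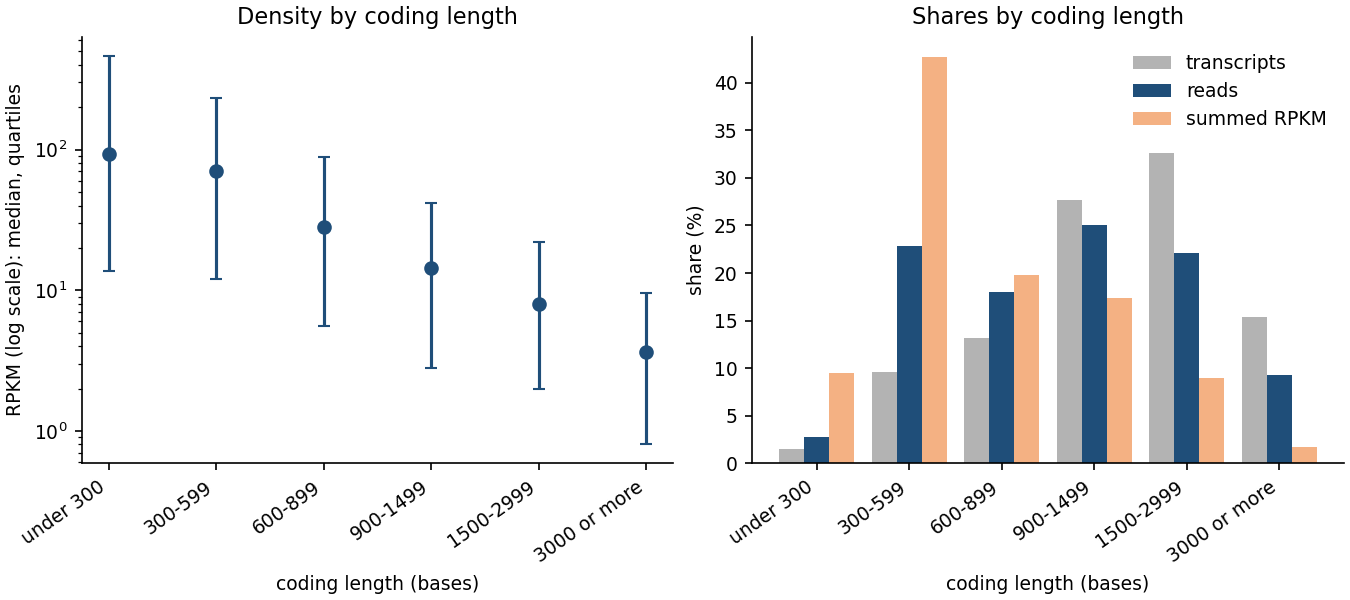
Left, median RPKM with quartiles (log scale) by coding length in bases. Right, the share (%) of transcripts, reads and summed RPKM in each length range. Median density is 92.8 RPKM under 300 bases and 3.66 RPKM from 3000 bases on, and transcripts from 300 to under 600 bases are 9.63% of transcripts with 22.8% of reads.

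Subunits of a complex that holds 1 copy of each are needed in equal numbers. Over 23 complexes with 218 listed subunits, 164 (75.2%) lay within 2-fold of the median RPKM of their complex, 26 lay above and 28 below. For comparison, 27.03% of all listed transcripts and 45.2% of the 5094 with at least 100 reads lay within 2-fold of their own median. A subunit helps set the median of its own small complex, which raises the first share.

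All listed subunits lay within 2-fold in 4 complexes. In the chaperonin CCT, which folds actin and tubulin, the 8 subunits ran from CCT8 at 261.7 RPKM to CCT7 at 759.2. In eIF2, which carries the initiator tRNA, they ran from 117.8 to 251.1 RPKM, and in condensin I, which compacts mitotic chromosomes, from 25.4 to 65.4 RPKM. The F1 head of ATP synthase was the fourth, although its subunits are not present in equal copies. The medians of the 2 ribosomal subunits were close, 2891 RPKM for 32 proteins of the small and 2989 RPKM for 43 of the large subunit.

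Other complexes held subunits outside that range, as in eEF1B, where 1 of 3 lay within it, and the Arp2/3 complex, with 2 of 5. The subunits of eEF1B are not present in equal copies, and the 1 within the range, EEF1D, is itself the median. The EEF1D transcript listed has 2094 coding bases, against 678 for EEF1B2 and 1314 for EEF1G. Its density, and with it this median, depends on the form listed. RPL36A stood at 67.6 RPKM, 0.0226 of the median of its subunit, and its near-identical paralog RPL36AL had 628.3 RPKM. PSMA1, a proteasome core subunit, had 42.1 RPKM against a median of 774.4, and PSMA6, PSMA3 and PSMA5 were at 0.116, 0.378 and 0.491 of that median. EEF1G, a subunit of the exchange factor of EEF1A1, had 49.3 RPKM beside EEF1B2 at 1352. NACA, which binds nascent chains at the exit port, had 129.7 RPKM beside its partner BTF3 at 1464. Their reads were close, 2398 for NACA and 2695 for BTF3, but the NACA transcript listed is a long form of 6237 coding bases, against 621 for BTF3, so the gap in density comes from the length divided by. Among the large RNA polymerase II subunits, POLR2A and POLR2B were at 0.202 and 0.164 of the median, while the small POLR2L was at 4.43. RPL17, RPL41, PSMA2, SNRPB and EIF3C were not listed. Each gene has the value of the 1 transcript listed for it, and whether reads of other isoforms or copies are missing from these values was not tested.

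**Figure D5:**
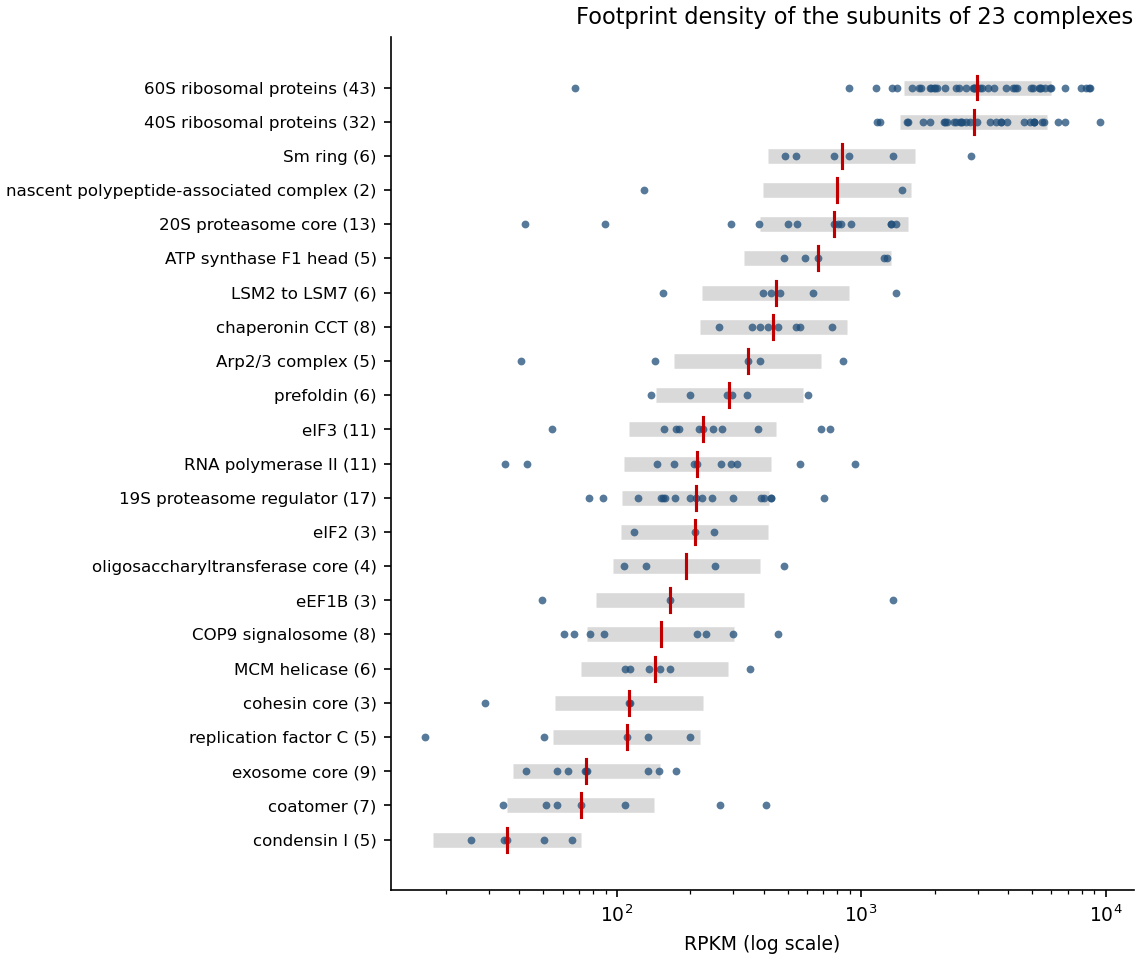
RPKM (log scale) of each listed subunit of 23 complexes, with the median as a red line, the 2-fold range as a grey band and the number of subunits in brackets. Of the 218 points 164 lie in the bands, and RPL36A at 67.6 RPKM lies farthest below its own.

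Codon shares were compared with and without weighting by footprints. Over 14147 coding sequences, with each transcript's codon shares weighted by its reads, CGT (arginine) was 1.59 times as frequent as with each transcript counted alike, AAG (lysine) 1.498 times and GGT (glycine) 1.37 times. By share rather than ratio, AAG was the most frequent weighted codon at 5.04%, followed by GAG at 4.09%, and CGT made up 0.737%. The cysteine codons TGC and TGT were lowest at 0.723 and 0.726. Without ribosomal proteins and histones, which are rich in lysine and arginine, CGT stood at 1.30 and AAG at 1.18. The share of codons ending in G or C moved little, from 59.5% to 60.3%. Weighted without ribosomal proteins and histones it was 59.0%, below the unweighted value.

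The start codon is recognised best with a purine 3 bases before it. This held for 84.8% of 13533 transcripts with a leader of at least 9 bases, and for 89.5% when weighted by footprints. Among 91 of the 100 most-read transcripts it held for 83, and for 75 of 81 ribosomal protein transcripts. Examples, with 9 bases before the start codon and the start codon in capitals, show the purine in mRNAs of different classes.
EEF1A1: aaagccaaaATGgga
GAPDH: tcagacaccATGggg
ACTB: cagctcaccATGgat
RPS4X: aacgcagccATGgct

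The class shares can be set beside those of the other libraries, with 1 library each and no test. The library totals were 2965243 reads in untreated wild type and 2555613 in wild type with erythromycin. In the mutant they were lower, at 604506 reads untreated and 993461 with erythromycin. Genotype and depth thus cannot be told apart in the values below, and an effect of depth was not tested. Cytosolic ribosomal proteins held 13.8% in untreated wild type, 14.3% in wild type with erythromycin, 11.4% in the untreated mutant and 11.3% in the mutant with erythromycin. Histones held 6.0%, 5.53%, 4.93% and 5.17% in the same order. Smaller classes differed more, with olfactory receptors at 0.0802%, 0.104%, 0.171% and 0.556%. Mitochondrially encoded proteins held 0.144%, 0.0816%, 0.230% and 0.224%, and zinc finger genes 0.869%, 0.845%, 1.81% and 1.65%. Of the 500 most-read transcripts, 19 differed by 3-fold or more between the highest and lowest of the 4 libraries, against a median of 1.38-fold. They held 1.959% of the wild type footprints. ZNFX1 had 459.1 RPKM in untreated wild type, 403.9 in wild type with erythromycin, 1727 in the untreated mutant and 48.8 in the mutant with erythromycin. HPSE2 had 1290, 603.6, 279.0 and 539.8 RPKM in the same order, and CCDC151 723.7, 40.5, 58.3 and 85.0 RPKM. For CCDC151 the untreated wild type library alone was high. DUXAP10, the most uneven, had 1448, 2836, 18121 and 90.6 RPKM. Its length of 633 bases was solved from the values, since no annotated coding length fitted it. Whether its reads come from translation was not tested. ACIN1 had 400.5, 268.1, 2601 and 1141 RPKM, higher in both mutant libraries. OR4K15, which supplied most olfactory receptor footprints, had 559.2, 454.8, 1305 and 2541 RPKM. ZNF107, the most-read zinc finger gene in untreated wild type, had 616.4, 470.8, 3608 and 1884 RPKM. Part of the difference in the zinc finger share thus lies on this single transcript. What makes these transcripts differ was not tested, and the budget without them is given with the alternatives.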

How the data were processed

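Ribosome footprints were measured in 4 HEK293 libraries, 1 per group. The authors deposited RPKM per Ensembl transcript, listing values above 0. GRCh38, STAR and cutadapt are named in the submitters' processing notes. Not given in the sources used here are the counter, the annotation release and how multi-mapping reads were treated. Reads were computed as RPKM × coding length (with stop codon, GENCODE 29) × library total, the total being the one that gave whole reads (within 0.001) for 99.2% of 14285 matched transcripts. Lengths were annotated for 14168 transcripts, solved from the values for 232 and unknown for 11. Tested on simulated data, the step found 4 of 4 totals and 155 of 164 altered lengths. Shares have Wilson and densities exact Poisson intervals. No test was possible with 1 library.

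Named genes are the 20 most read, the 10 densest with at least 100 reads, the 3 most read per class, the extremes of each complex and members of tissue-specific families. Members and lists were chosen with earlier results of these data known. The families, codon and start analyses, thresholds for marker genes and for differences among libraries, and other examples were chosen after values were seen. RefSeq promoters (GRCh38.p14) matched 11606 listed genes. Python 3.11.15, numpy 2.4.6, scipy 1.17.1 and pandas 2.3.3 were used.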

Additional observations from a re-analysis of the deposited data

How the results depend on the processing

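The main shares were 13.8% for ribosomal proteins, 5.76% for the 10 most-read transcripts and 68% for all classes, with 551 transcripts holding 50% of footprints. With RPKM as weights these became 22.5%, 7.48%, 75.2% and 216 transcripts. With at least 5 RPKM the 3 shares were 14.04%, 5.88% and 68.8%, and with at least 20 reads 13.9%, 5.81% and 68.4%. With annotated coding lengths only they were 13.83%, 5.86% and 68.39%. Without the 10 most-read transcripts the ribosomal protein share was 13.2% and that of the classes 66.0%. Without the transcripts that differ 3-fold among libraries, an alternative added after seeing the data, the 3 shares were 14.03%, 5.87% and 68.6%. Each of these shares left its counting interval, which is narrow. The number of transcripts holding 50% has no such interval. Apart from RPKM as weights, it ran from 517 with at least 5 RPKM to 646 without the 10 most-read transcripts. The rank correlation of RPKM with length was -0.40 as reported, -0.47 with at least 5 RPKM and -0.63 with at least 20 reads. The share of complex members within 2-fold ran from 72.7% to 75.5%. The share of ribosomal protein genes with a tract at the start, 64.6% as first counted, was 75.9% and 17.1% in alternatives added after seeing the data.

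No paired analysis was possible because each group has 1 library and no result comes from a test. At this depth 3 reads on a coding sequence of 1 kb correspond to 1.01 RPKM, and 1881 transcripts listed in another library were not listed here.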
